A study of Rattus norvegicus with 10 samples.

Results

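Cytosolic ribosomal protein genes were examined in erectile tissue of control and diabetic rats. A probe set was taken as a member if the platform annotation named 1 gene whose symbol starts with Rpl or Rps followed by a digit, or is Rplp0, Rplp1, Rplp2 or Rpsa, and the Rps6k kinases were left out. This rule used no measured value. It gave 50 of 15866 probe sets, for 44 of 10411 genes, of which 30 encode large subunit proteins (33 probe sets) and 14 small subunit proteins (17 probe sets). A further 34 probe sets were not members because they name several loci, a ribosomal protein gene among them. The samples were total RNA from penile cavernosal tissue of F344 rats, an inbred strain, with 1 Affymetrix RAE230A array per sample. The 5 control samples carry no stated treatment. The 5 diabetic samples came from animals given streptozotocin, which destroys the insulin-making cells of the pancreas, and were taken at 10 weeks. Age is not given in the labels, nor whether a sample came from 1 animal, so the spread behind each p-value may be technical.

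The ribosome is built of a small subunit, which reads the messenger RNA, and a large subunit, which joins amino acids. Each subunit holds ribosomal RNA and a set of proteins that are mostly needed in equal numbers, so that their genes are usually expressed together and at high levels in every tissue. Many of their messenger RNAs start with a 5′ terminal oligopyrimidine (TOP) tract, through which mTOR and the protein LARP1 control their translation. A few members have paralogs with a narrower use. In mouse, Rpl3l is made in heart and skeletal muscle, where it takes the place of Rpl3, a protein close to the catalytic centre of the large subunit.

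Motifs were chosen with the data and these sequences in view. Start regions are shown for 2 reasons, the pyrimidine stretches near the starts of the family and the contrast between Rpl3 and Rpl3l. Sequences are those of RefSeq on the GRCr8 build, which held a start region for 37 of the 44 member genes. Each of the following windows holds 15 bases before and 15 bases from the annotated start on, 5′ to 3′ on the gene's strand, with the letters CTTTC in capitals.
Rpl12 (chr3:36661925-36661954, + strand): ggagcaacatccgtcttttcggCTTTCggt
Rpl22 (chr5:168117946-168117975, + strand): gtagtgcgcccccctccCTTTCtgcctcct
Rpl35 (chr3:43165907-43165936, - strand): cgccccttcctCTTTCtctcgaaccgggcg
Rps15a (chr1:181860270-181860299, - strand): cggcgttttCTTTCcacagtcaccatggtg
Rps23 (chr2:23814502-23814531, + strand): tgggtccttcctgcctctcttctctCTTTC
Rpl3 (chr7:113507976-113508005, - strand): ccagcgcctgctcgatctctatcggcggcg
Rpl3l (chr10:14258431-14258460, + strand): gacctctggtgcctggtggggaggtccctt

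CTTTC on the gene's strand lay in this window for 14 of 37 members (37.8%), against 3.59% of the windows of 33469 RefSeq genes. On the opposite strand it lay in 0 of 37, against 3.82%. The longer CTTTCC, which contains CTTTC, lay in 8 of 37 on the gene's strand (21.6%, against 1.24%) and in 0 on the other (against 1.30%). The median log2 difference between diabetic and control arrays was 0.12 over the 14 genes with CTTTC and 0.059 over the 22 tested genes without it, so both lay close to 0. A match counted anywhere in the window, before or after the start, and is not a shown TOP tract. Windows without CTTTC can hold other pyrimidine runs, as that of Rps24 does. Neither Rpl3 nor Rpl3l held CTTTC in its window. The 250 bases before the start of both genes are shown with CANNTG, the letters of an E-box, in capitals.
Rpl3 (chr7:113507991-113508240, - strand): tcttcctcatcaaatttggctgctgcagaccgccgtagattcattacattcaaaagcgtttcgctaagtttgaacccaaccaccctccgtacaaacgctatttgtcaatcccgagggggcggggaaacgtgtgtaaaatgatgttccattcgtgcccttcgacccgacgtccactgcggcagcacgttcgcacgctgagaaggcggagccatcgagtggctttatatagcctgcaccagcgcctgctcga
Rpl3l (chr10:14258196-14258445, + strand): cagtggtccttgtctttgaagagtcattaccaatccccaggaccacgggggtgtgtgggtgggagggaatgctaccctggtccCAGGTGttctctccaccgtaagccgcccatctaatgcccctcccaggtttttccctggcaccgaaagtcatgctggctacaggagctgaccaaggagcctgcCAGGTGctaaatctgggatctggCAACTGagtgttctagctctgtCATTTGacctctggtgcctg

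CANNTG reads the same on both strands. It occurs 4 times before Rpl3l and not before Rpl3. Of all RefSeq genes 65.5% held at least 1 match in these 250 bases and 3.20% held 4 or more. Among the members 18 of 37 held at least 1, and Rpl3l alone held 4. A match is a run of letters and not a shown binding site.

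The control arrays were not alike, which touches every comparison here. Controls 1, 2 and 4 were low in epithelial genes, with a mean log2 intensity of the epithelial list (17 tested genes) of 5.84, 5.88 and 7.47, whereas controls 3 and 5 read 8.88 and 9.34. The diabetic arrays read between 8.44 and 9.42. The smooth muscle list, the labelled tissue's own, read 9.69 to 10.15 in control and 9.91 to 10.18 in diabetic arrays. This mean covers opposed genes, with 6 of 9 higher and 3 lower in diabetic arrays (log2 difference -0.48 to 0.53, median 0.28). At an unadjusted limma p of 0.05 the count was 4 of 9, against 17.5% of all probe sets tested. Des, a gene of this list, is also on the skeletal muscle list. Skeletal muscle markers were bright in all samples, with a summed intensity of 22 genes of 120001 to 146194 in control and 95223 to 128580 in diabetic arrays. Array medians lay between 116.8 and 131.4. In bulk tissue, fewer cells of a type and less RNA per cell cannot be told apart. The 10 arrays were scanned on 4 days and washed on 2 fluidics stations. On station 1 were 4 controls with 1 diabetic array, and on station 2 the reverse.

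No ribosomal protein gene was called as different between diabetic and control tissue. Of the 50 probe sets 47 passed the filter on low intensity, for 42 genes, and limma called 0 of the 47. Over all 9683 probe sets tested it called 0.423%, so a count of 0 among 47 is near the background. At an unadjusted p of 0.05 the count was 0 of 47, against 17.5% of all probe sets tested. This count depended on the processing, with 10 of 47 under quantile normalization (17.4% of all), 8 with array weights (42.7%), 5 with station as a block (15.3%) and 5 without control 5 (32.7%). The smallest unadjusted p of a member was 0.0691, that of Rpl35. The groups did not overlap in 0 of 47 members and in 3.89% of all probe sets tested. With array quality weights 5 of 47 members were called, Rpl3, Rpl3l, Rpl12, Rpl35 and Rps15a. That was a smaller share than over the whole table, where 2813 of 9683 probe sets were called. No other alternative called a member.

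Each gene was read by its brightest tested probe set for counts over genes, and the log2 difference is diabetic minus control. Of 29 large subunit genes 22 lay higher and 7 lower in diabetic arrays, with a median of 0.066 (range -0.60 to 0.23). Of 13 small subunit genes 9 lay higher and 4 lower, with a median of 0.042 (range -0.093 to 0.22). The median over all 7143 genes tested was 0.049, with 57.8% higher, so both subunits lay within 0.018 of the table as a whole. This small positive sign depended on scaling, since with each array centred on its median 15 of the 42 genes lay higher, with medians of -0.010 and -0.035. Quantile normalization gave 37 of 42 higher, with medians of 0.16 and 0.14, while the median over all genes stood at 0.0060. Large and small subunit medians differed by 0.025, a difference that was not tested.

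In the deposited scaling the differences of the family were narrow. The log2 difference lay within 0.25 of 0 for 41 of 42 member genes (97.6%), and for 64.9% of all genes tested. The exception was Rpl3l. With quantile normalization 35 of 42 lay within this band (66.2% of all genes), and with station as a block 33 of 42 (55.1%). Some related lists were narrow too. In the deposited scaling the band held 85.7% of 35 ribosome biogenesis genes and 82.4% of 34 initiation factor genes. It held 66.7% of 9 elongation factor genes, 64.3% of 14 S6 kinase and mTOR genes and 67.1% of 70 mitochondrial ribosome genes. The 95% interval of the difference lay wholly within 0.5 of 0 for 39 of 42 genes (92.9%), against 48.8% of all genes. Its median half-width was 0.26 for members and 0.32 for all genes. The remaining 3 genes were Rpl3, Rpl3l and Rps15a, whose intervals ran from -0.19 to 0.62, from -1.45 to 0.26 and from -0.076 to 0.52.

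**Figure D1:**
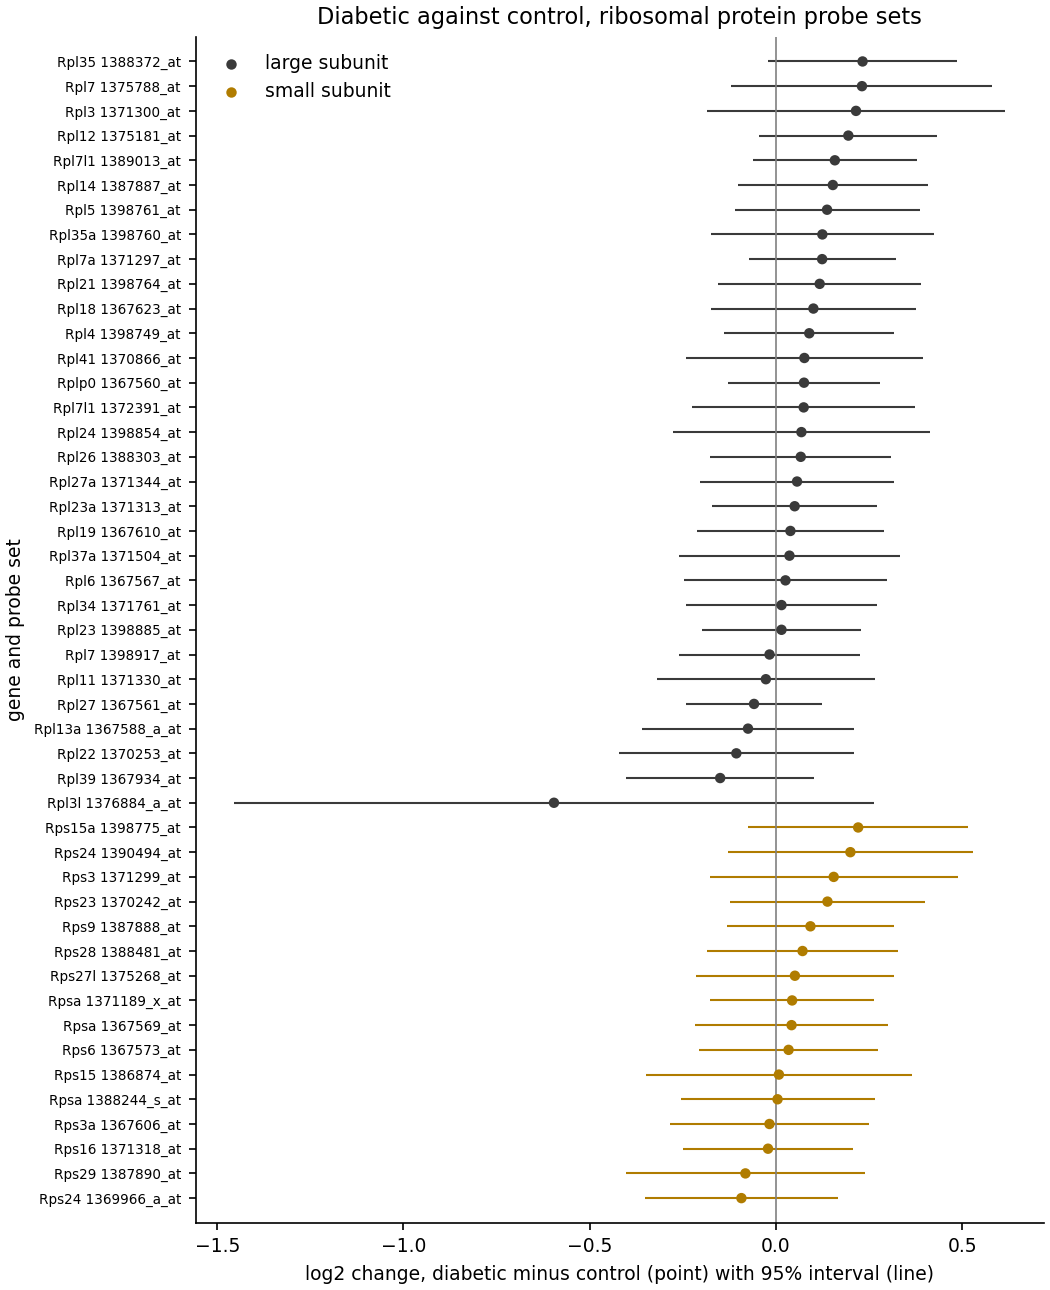
Log2 difference between 5 diabetic and 5 control arrays (horizontal axis, diabetic minus control) for each of the 47 tested probe sets of ribosomal protein genes (vertical axis), as a point with its 95% interval from limma. All intervals cross 0, and Rpl3l stands out with the widest interval, from -1.45 to 0.26.

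**Figure D2:**
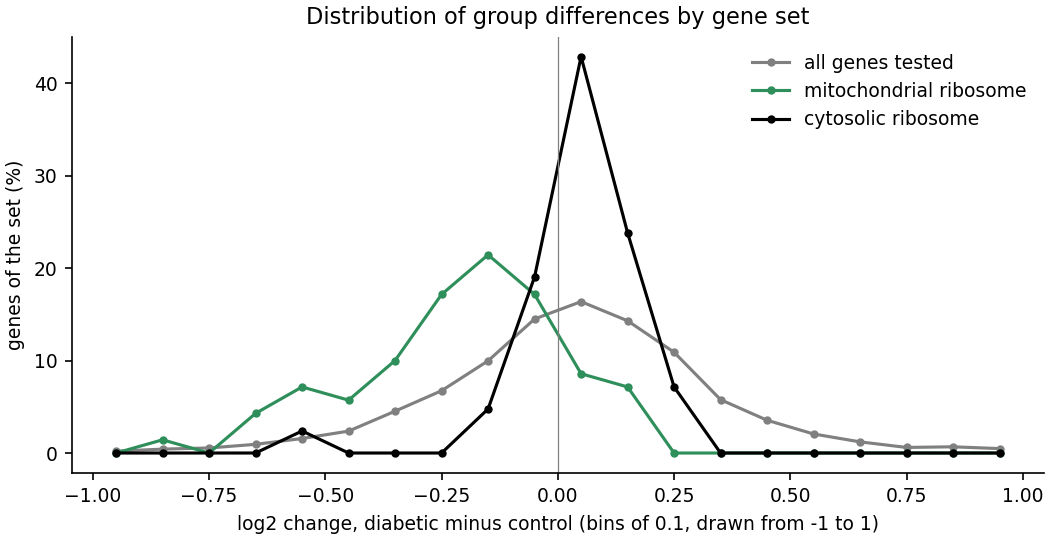
Share of genes (vertical axis, percent) by log2 difference between diabetic and control arrays (horizontal axis, bins of 0.1 from -1 to 1) for 42 cytosolic ribosomal protein genes, 70 mitochondrial ribosomal protein genes and all 7143 genes tested. The cytosolic genes gather around 0, the mitochondrial genes lie mostly below 0 (median -0.18), and all genes spread more widely.

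The members moved together from array to array, and more among controls than among diabetic samples. For each of 39 core genes (paralogs left out) the log2 intensity was set against its own mean over the 10 arrays. The median deviation of the large subunit was 0.051, -0.12, 0.016, -0.28 and 0.17 in controls 1 to 5, and 0.094, 0.070, 0.11, -0.066 and -0.056 in diabetics 1 to 5. The small subunit read 0.067, -0.12, 0.063, -0.35 and 0.22, and 0.060, 0.070, 0.11, -0.046 and -0.083. Both subunits were thus lowest in control 4 and highest in control 5, and the diabetic arrays lay between. In control 4 only 1 of the 39 genes, Rpl39, lay above its own mean, and 32 of 39 had their lowest value there. In control 5, 34 of 39 lay above their mean and 23 had their highest value there.

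The within-group SD of log2 intensity was wider in controls for 36 of 39 core genes (92.3%), with a median of 0.22 in control and 0.11 in diabetic arrays. Over all genes tested it was wider in controls for 77.5%, with medians of 0.26 and 0.18. Across the 10 arrays each core gene was correlated with the median of the others, as a description over arrays that share their scaling. The correlation had a median of 0.86 over the 39 genes, exceeded 0.8 for 25 and was under 0.5 for 4, namely Rpl23a (0.47), Rpl22 (0.29), Rpl24 (0.14) and Rpl39 (-0.38). The genes that followed the rest most closely were Rpl19 (0.98), Rpl26 (0.96) and Rps23 (0.95).

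**Figure D3:**
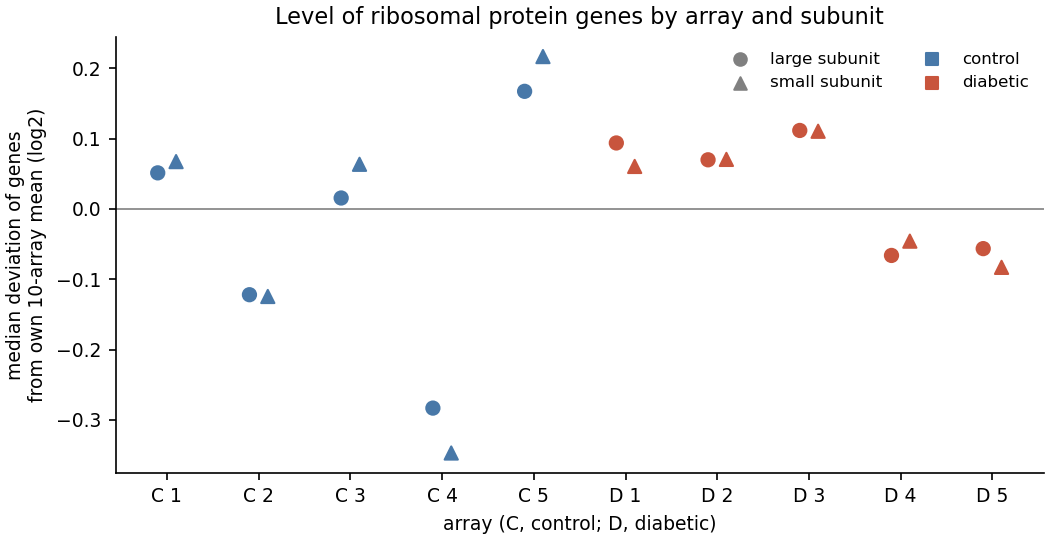
Median deviation of 27 large subunit (circles) and 12 small subunit (triangles) core genes from their own mean over the 10 arrays, in log2 units (vertical axis), for each control (C) and diabetic (D) array. The 2 subunits sit together in every array, with control 4 lowest (-0.28 and -0.35) and control 5 highest (0.17 and 0.22).

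Within scan days 1, 2 and 3 the large subunit median difference stood at -0.080, 0.37 and 0.0044, and the small subunit median at -0.090, 0.40 and -0.0075. The large values of day 2 rest on control 4 and diabetic 1 alone. Within stations 1 and 2 the large subunit stood at 0.021 and 0.30 and the small at -0.0061 and 0.35, and control 4 is the only control of station 2. Leaving out control 4 brought the medians to 0.0051 and -0.039, with 21 of 42 genes higher, and 0 of 47 probe sets called. Without controls 1, 2 and 4 the medians were -0.074 and -0.14, with 12 of 42 genes higher, and 0 were called. In that setting of 2 controls the groups did not overlap in 8 of 47 members and in 19.4% of all probe sets tested.

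Rpl3l had the widest range among the members, 2.15 on the log2 scale. Its contrast with Rpl3, the only pair compared in this way, ran between control samples more than between the groups. Rpl3l, the muscle paralog, read an intensity of 2451, 2362, 893.3, 1836.5 and 539.7 in controls 1 to 5 and 896.2, 619.8, 946.9, 1092 and 1108 in diabetics 1 to 5. It was high in controls 1, 2 and 4, while controls 3 and 5 lay in or below the range of the diabetic arrays. The difference of -0.60 ± 0.39 (SE, n = 5 per group; limma adjusted p = 0.426) did not pass.

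Rpl3, of the catalytic centre, read 3482, 3327, 5031.5, 3231 and 6273 in controls and 4893, 5320, 4879, 4535 and 4332 in diabetic arrays. It was low in the same controls 1, 2 and 4 where Rpl3l was high, and control 5 was highest in Rpl3 and lowest in Rpl3l. Its difference of 0.21 ± 0.18 (SE) did not pass either (limma adjusted p = 0.536). Control 1 was not low in the family as a whole, since 30 of the 39 core genes lay above their own mean there. Controls 2 and 4 were low in the family, with 4 and 1 of 39 above, and control 5 was high, with 34. Over the 10 arrays Rpl3 had a correlation of 0.79 with the rest of the core genes.

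The log2 intensity of Rpl3l minus that of Rpl3 was -0.50, -0.49, -2.47, -0.81 and -3.50 in controls and -2.43, -3.07, -2.35, -2.04 and -1.95 in diabetic arrays. Since the 2 probe sets differ in their probes, only its change between arrays can be read. The group means, -1.56 ± 1.36 and -2.37 ± 0.44 (SD), differed by -0.81 (exact permutation test over 252 assignments, two-sided p = 0.246, smallest possible 0.00794).

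Within scan days 1 to 3 and stations 1 and 2 the Rpl3l difference stood at -0.88, -1.02 and -0.40 and at -1.05 and -0.86, values with no test. Its sign turned without controls 1, 2 and 4 (0.39, limma adjusted p = 0.488), with the epithelial list as a covariate (0.26, adjusted p = 0.577) and with the skeletal muscle list as a covariate (0.43, adjusted p = 0.846). Over all alternatives its adjusted p ran down to 0.0127, with array weights (-1.06). Rpl3 stood at -0.23, -0.14 and -0.20 in the same 3 settings.

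The mean log2 intensity of the skeletal muscle list was 12.21, 12.26, 12.04, 12.02 and 11.71 in controls 1 to 5 and 11.52, 11.44, 11.69, 11.78 and 11.95 in diabetics 1 to 5. It was highest in controls 1 and 2 and, among controls, lowest in control 5, as Rpl3l was. By summed intensity control 4 was the lowest control (120001). Over diabetics 1 to 5 the muscle mean had the same order as Rpl3l. The epithelial list summed to 1032.5, 997.1, 10236, 3419 and 15050.0 in controls 1 to 5. This was the reverse order of Rpl3l except between controls 1 and 2. In diabetics 1 to 5 the epithelial list summed to 12414, 15185, 14025, 7353.5 and 9595, which did not keep the reverse order of Rpl3l. No gene of these lists was at 0 on all arrays. The part of the epithelial and muscle signal in the Rpl3 and Rpl3l values was not tested beyond these covariates.

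**Figure D4:**
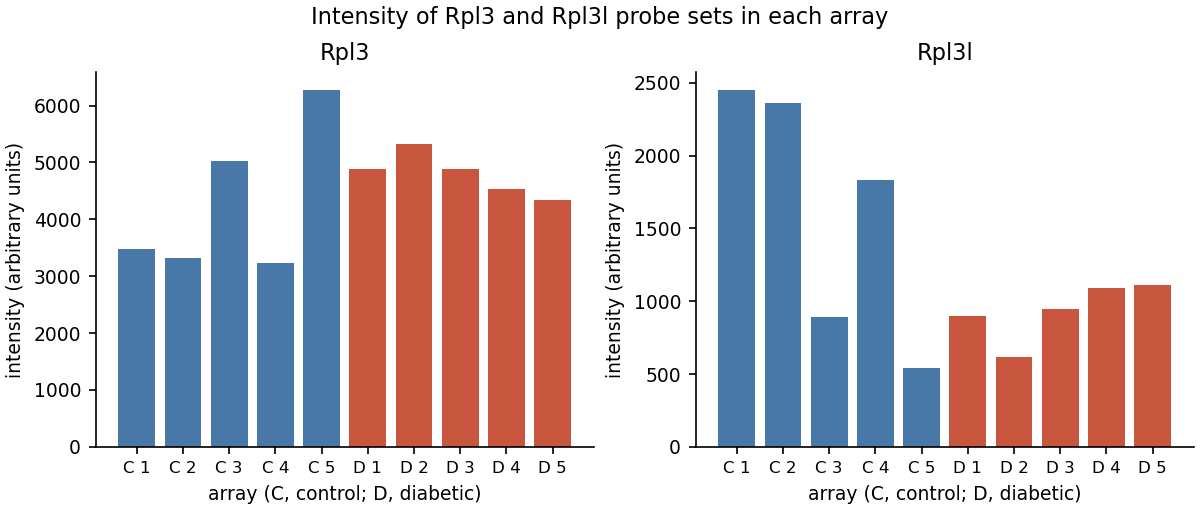
Intensity (vertical axis, arbitrary units of the deposited table, from 0) of the Rpl3 and Rpl3l probe sets in each of the 5 control (C, blue) and 5 diabetic (D, red) arrays. Controls 1, 2 and 4 are high in Rpl3l (1836.5 to 2451) and low in Rpl3 (3231 to 3482), and the diabetic arrays lie between 619.8 and 1108 in Rpl3l and between 4332 and 5320 in Rpl3.

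Among the other paralogs, differences were small. Rps27l, a p53-induced paralog of Rps27 in human cells, read 148.3 to 206.1 in control (median 156.3) and 161.6 to 220.6 in diabetic arrays (median 167.5), with a difference of 0.051 ± 0.12 (SE; limma adjusted p = 0.841). Rpl7l1, a paralog of Rpl7, was read by 2 probe sets. The first lay at 298.5, 315.6, 359.1, 350.9 and 394.5 in controls and 381.8, 405.4, 421.4, 354.5 and 359.0 in diabetic arrays, with a difference of 0.16 ± 0.10 (adjusted p = 0.411). Controls 1 and 2 were its lowest arrays. The second differed by 0.074 ± 0.14 (adjusted p = 0.793).

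In the large subunit, Rpl35 and Rpl12 came nearest to a difference. Rpl35, a protein near the peptide exit, read 3968, 3299, 4093, 3065 and 4421 in controls and 4515, 4645, 4589, 4038 and 4194 in diabetic arrays. Controls 1, 2 and 4 lay below all diabetic arrays, while controls 3 and 5 lay among them. The difference was 0.23 ± 0.12 (SE; limma adjusted p = 0.321), with values of 0.15, 0.56 and 0.16 within the 3 scan days. Rpl12, at the base of the stalk that receives elongation factors, read 3772, 3334, 4207, 3117 and 4286 in controls and 4242, 4204, 4596, 4270.4 and 3969 in diabetic arrays. Controls 1, 2 and 4 again lay below all diabetic arrays, and its difference was 0.19 ± 0.11 (adjusted p = 0.365).

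Rplp0, the protein that carries the stalk, lay between 3397 and 4430.2 in control and between 4027 and 4334 in diabetic arrays, and control 4 was lowest. Its difference was 0.075 ± 0.093 (limma adjusted p = 0.682). Rpl7a and Rpl37a, chosen for their high intensity, differed by 0.12 ± 0.090 and 0.036 ± 0.13 (adjusted p = 0.469 and 0.899). Rpl27 and Rpl23a had the narrowest ranges of the large subunit, 0.25 and 0.31 over the 10 arrays on the log2 scale, and differed by -0.059 ± 0.083 and 0.050 ± 0.10.

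Rpl22 and Rpl39, like Rpl24 and Rpl23a, followed the family weakly or not at all, with a correlation under 0.5. Rpl22, an RNA-binding protein needed in mouse for T cell development, read 6164, 4495, 3842, 3559 and 4033 in controls and 4496, 3971, 4093.5, 3988 and 3620.4 in diabetic arrays. Control 1 alone stood high, and the difference was -0.11 ± 0.14 (SE; limma adjusted p = 0.708). Rpl39, a very small protein of the exit tunnel, read 370.1, 323.1, 300.8, 293.4 and 262.1 in controls and 273.9, 277.3, 227.6, 312.2 and 296.3 in diabetic arrays. Control 5, where the family was highest, was its lowest control, and its difference was -0.15 ± 0.11 (adjusted p = 0.491). The Rpl39 probe set was the dimmest of the core genes, with a mean log2 intensity of 8.26, and Rpl21 came next at 11.04. Whether its weak correlation belongs to the gene or to the probe set was not tested.

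In the small subunit, Rps15a had the smallest p. It read 4436, 3918, 4757, 3059.6 and 5170.1 in controls and 5008, 4978, 5185, 4683 and 4655 in diabetic arrays. Controls 1, 2 and 4 lay below all diabetic arrays. The difference was 0.22 ± 0.13 (SE; limma adjusted p = 0.394), and it stood at 0.056, 0.71 and 0.11 within the 3 scan days. Rps3, at the entry of the messenger RNA channel, Rps23, close to the decoding site, and Rps9 differed by 0.15 ± 0.15, 0.14 ± 0.12 and 0.092 ± 0.10, with adjusted p between 0.541 and 0.642.

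Rps6, the substrate of the S6 kinases, read 6779, 6125, 7157, 5129 and 7519 in controls and 6436, 6706.5, 7074, 6510.3 and 6482 in diabetic arrays. The diabetic values all lay within the control range, and the difference was 0.034 ± 0.11 (SE; limma adjusted p = 0.883). Rps15, in the head of the subunit, and Rps29, a zinc-binding protein, had the widest ranges of the brighter small subunit probe sets. Rps15 ran from 2162 in control 4 to 4209 in control 5 and from 2583 to 3139 in diabetic arrays, and Rps29 from 6542 to 11901 in the same controls and from 7202 to 9151 in diabetic arrays. Their differences were 0.0078 ± 0.16 and -0.082 ± 0.15 (adjusted p = 0.983 and 0.785).

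Some genes had several probe sets, and these did not always read alike. Rpsa, also known as a laminin receptor precursor, had 3 probe sets with differences of 0.042 ± 0.12, 0.043 ± 0.10 and 0.0041 ± 0.12 (SE). The brightest was lowest in control 4 (3274) and highest in control 5 (4872), while the _s_at probe set was highest in control 1 (1972.5) and lowest in control 3 (1414). Rpl7 and Rps24 each had 1 bright probe set and 1 near the filter. The bright ones differed by -0.017 ± 0.11 and -0.093 ± 0.12, and the dim ones, at 78.9 to 154.3 in all arrays, by 0.23 ± 0.16 and 0.20 ± 0.15, the opposite sign. For Rpl14 the bright probe set differed by 0.15 ± 0.12, and the other read 6.4 to 32.6 and was not tested. The probe sets of Rpl30 and Rps4y2, at 33.1 to 54.9 and 19.5 to 45.5, were not tested either.

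The other genes of translation likewise held no call, which is near the background of 0.423% of all probe sets tested. Of the ribosome components listed under other symbols, Rack1 alone was tested, at 0.053 ± 0.098 (SE; limma adjusted p = 0.793). Elongation factors held 5 higher and 4 lower of 9 tested genes (median 0.0068), with 0 called by limma and 2 of 9 at an unadjusted p of 0.05 (background 17.5%). Eef2, the translocation factor, stood at 0.26 ± 0.11 (adjusted p = 0.264) and its inhibitory kinase Eef2k at -0.58 ± 0.17 (adjusted p = 0.147). Initiation factors held 22 higher and 12 lower of 34 (median 0.060), ribosome biogenesis 20 and 15 of 35 (median 0.041), and the S6 kinase and mTOR list 8 and 6 of 14 (median 0.061), again with 0 called. At an unadjusted p of 0.05 these 3 lists held 6 of 34, 2 of 35 and 2 of 14, close to or under the background of 17.5%. Rps6kb1, which encodes the main S6 kinase, stood at -0.39 ± 0.14 (adjusted p = 0.204). Tsc1, the other gene of that list at an unadjusted p of 0.05, stood at 0.45 ± 0.19 (adjusted p = 0.252). In the initiation and biogenesis lists the smallest adjusted p were those of Eif4ebp2 (0.51 ± 0.16, adjusted p = 0.159) and Mrto4 (0.40 ± 0.097, adjusted p = 0.0940). Those named here were chosen after their values were seen.

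Genes for proteins of the mitochondrial ribosome, a separate particle that translates the mitochondrial genome, lay lower by value. Of 70 tested genes 59 lay lower and 11 higher in diabetic arrays, with a median of -0.18. By limma 0 were called (background 0.423%), the smallest adjusted p being 0.0613 for Mrpl54 (-0.86 ± 0.18). At an unadjusted p of 0.05 the count was 17 of 70 (background 17.5%), and in 5 of 70 the groups did not overlap, all of them lower (background 1.53% for lower and 2.36% for higher values). The mitochondrial large and small subunits stood at -0.18 and -0.16. Skeletal muscle markers lay lower beside them, in 22 of 22 tested genes with a median of -0.25. None of the 22 was called by limma (background 0.423%), with 8 at an unadjusted p of 0.05 (background 17.5%). The part of muscle signal in the mitochondrial values was not tested. The difference between the cytosolic and mitochondrial sets was not tested.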

How the data were processed

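Each deposited value is an intensity on a linear scale, 1 for every probe set on every array. Per the file headers, the authors used RAE230A chips of 1 lot. Trimmed means lie between 250.055 and 250.065, so the arrays had been scaled; which software did so is not given in the sources used. No detection calls were used. The array records, with values of other kinds (text settings deposited by the authors), gave scan day and station.

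The 57 control probe sets among 15923 rows were dropped. Intensities under 1 became 1, and tests used log2(intensity + 16), which understates changes of dim probe sets. Testing required 5 or more of 10 arrays over 85.9, the 40th percentile. The group difference was fitted in R 4.3.3 by limma 3.58.1 (lmFit, then eBayes using a trend). Its two-sided p-values were adjusted by Benjamini-Hochberg across 9683 probe sets, and the threshold was 0.05. The fit was tested on simulated data. Named are members fixed by role, and per subunit those with the smallest p, the highest and lowest intensity and the widest and narrowest range, and genes with several probe sets. Replicate numbers come from deposit order, so no samples are paired. Members, lists and tests were chosen with earlier results of these data known. Ribosomal protein genes have many near-identical copies, so a probe set may read more than its gene.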

Additional observations from a re-analysis of the deposited data

Results flagged for a closer look

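In 68 groups of 5 arrays examined for an array far from the others, 3 stood out (4.41%), about what chance gives, 1 in 20. The dim probe set of Rpl14, which was below the filter, had control 2 apart from the other controls, at 32.6 against 6.4 to 10.4 (gap over range 0.788). The same probe set had diabetic 1 apart, at 13.3 against 6.7 to 8.1 (0.766). Rpl7a, a large subunit protein, had control 4 apart, at 5597 against 6796 to 7226 (0.759), in the array where the whole family was lowest.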

How the results depend on the processing

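No paired analysis was possible because the titles of the groups share only 1 number, that of control 4 and diabetic 1, which also share scan day 2 and station 2. Member probe sets called stayed at 0 of 47 except with array weights (5 of 47, against 2813 of 9683 in all). Members without overlap between the groups numbered 5 of 47 with quantile normalization (4.01% of all probe sets) and 8 of 47 without controls 1, 2 and 4 (19.4% of all). Genes higher in diabetic arrays, 31 of 42, numbered 15 with median centring, 12 and 19 with the muscle and the epithelial covariate, 12 when controls 1, 2 and 4 were dropped, and 54 of 69 with probe sets of several loci added after seeing the data. The large and small subunit medians turned to -0.074 and -0.14 without controls 1, 2 and 4. They stood at -0.023 and -0.053 with the epithelial covariate and at -0.010 and -0.035 with median centring. With the muscle covariate both were negative as well. The difference between them stood at -0.018 with station as a block, -0.013 with the muscle covariate, and 0.070 when controls 1, 2 and 4 were dropped. With single arrays left out the large subunit ran from 0.0051 to 0.12, the small from -0.039 to 0.10, their difference from -0.015 (without diabetic 3) to 0.046, genes higher from 21 (without control 4) to 36, and calls over the whole table from 0 to 1064 (without control 5). Calls over the whole table, 41, numbered 22 with a pseudocount of 1, 26 without the filter, 0 with scan day or station as a block (1119 and 1483 at an unadjusted p under 0.05 in limma), 2813 with array weights, 22 with the epithelial covariate and 0 (681 unadjusted) with the muscle covariate. They numbered 0 (751 unadjusted) without controls 1 and 2, 22 without controls 1, 2 and 4, 504 without controls 4 and 5 (added after seeing the data), and 0 and 230 at adjusted p of 0.01 and 0.1. Among all calls, 51.2% of 41 lay higher as reported and 30.2% of 43 with median centring. The cause of these moves was not tested. The number of arrays limits precision.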

Other observations

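Probe sets that name several loci, each of them a ribosomal protein symbol of 1 subunit, were read as a separate group, chosen after seeing the data. In the large subunit 13 of 15 such probe sets lay higher in diabetic arrays, with a median of 0.058 and a range of -0.20 to 0.43. In the small subunit 10 of 12 lay higher, with a median of 0.087 and a range of -0.17 to 0.24. None was called by limma, 1 reached an unadjusted p of 0.05, and the smallest adjusted p was 0.179. With them added the medians over all probe sets stood at 0.062 for the large and 0.060 for the small subunit.

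Some other cell markers differed between the groups as well. Of 8 listed adipocyte genes 5 were tested, and 4 of these lay higher in diabetic arrays. Fabp4, Lipe and Cfd stood at 0.38 ± 0.38, 0.60 ± 0.19 and -0.56 ± 0.42 (SE) and were not called. The 2 called by limma were Lpl, a lipase of fat and muscle, and Cidea, a lipid droplet protein (background 0.423%). Lpl stood at 1.41 ± 0.15 (SE; limma adjusted p = 0.0108) and Cidea at 1.15 ± 0.19 (adjusted p = 0.0413). Both calls were lost with scan day as a block (adjusted p = 0.123 for each), with station as a block (0.162 and 0.198), with the muscle covariate (0.355 and 0.562) and without control 1 (0.0567 and 0.116). With other single arrays left out, Lpl was lost without diabetic 2 or 3 (0.0659 and 0.0613), and Cidea was called only without control 4 or control 5 (0.0426 and 0.0140). Without controls 1 and 2 both calls were lost as well (limma adjusted p = 0.0992 for Lpl and 0.235 for Cidea). Cidea, but not Lpl, was also lost without the filter (0.0605), with the epithelial covariate (0.0870) and without controls 1, 2 and 4 (0.0652). All 9 tested fibroblast genes lay lower by value, with a median of -0.32, and in 4 the groups did not overlap (background 1.53% for lower values). None of the 9 was called by its brightest probe set, and 1 of the 12 fibroblast probe sets tested was called (background 0.423%). Their part in the ribosomal protein values was not tested.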
